A study of Homo sapiens with 11 samples.

Results

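Genes of the unfolded protein response and of the amino acid response were examined in MDA-MB-231, an established human breast cancer cell line, on 11 Affymetrix HG-U133 Plus 2.0 arrays. The 36 genes were chosen by symbol, 18 as chaperones and other machinery of the endoplasmic reticulum and 18 as amino acid genes under the transcription factor ATF4. A gene's value was the mean over the probe sets annotated to that symbol alone. This gave 35 of the 36 genes, out of 19775 genes in all. SYVN1, a ubiquitin ligase of the endoplasmic reticulum, was not measured because its probe set was annotated to more than 1 symbol. The 35 genes were read by 66 probe sets, and 15 of them by a single one.

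All cells spent 4 h in charcoal-stripped serum (10%) before a treatment of 3 h. The groups were untreated control (2 arrays), E2-BSA at 1 µM (2 arrays), and 1 array each of estradiol at 1 µM, ethanol at 0.1%, BSA at 1 µM, ICI at 10 µM, G15 at 10 µM, E2-BSA with ICI, and E2-BSA with G15. E2-BSA is estradiol coupled to bovine serum albumin, BSA is that carrier protein alone, and ethanol is the vehicle of estradiol. G15 blocks GPER, an estrogen receptor of the G protein-coupled class, and ICI is named here as the labels name it. The labels do not say whether duplicate arrays came from separate cultures, so p-values reflect no more than array-to-array spread, which may be technical, and the number of arrays limited the precision. The deposited values are log2 values centred on each probe set, so they give differences between arrays and no level of a gene. For that reason the markers that define the cell line could not be read as present or absent, and no gene is compared with another by level.

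Misfolded protein in the endoplasmic reticulum is sensed by IRE1, ATF6 and PERK. IRE1 splices XBP1 mRNA, and XBP1 and ATF6 drive genes for chaperones, disulfide isomerases and the degradation machinery, many through a promoter sequence called the ER stress response element. PERK, and GCN2 when amino acids run short, phosphorylate the translation factor eIF2α, which favours translation of ATF4 mRNA. ATF4 acts with C/EBP proteins on C/EBP-ATF elements of genes for amino acid synthesis, transport and tRNA charging. Spliced XBP1 and ATF4 protein are not measured by these arrays.

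The lists differed in the letters of their promoters. Windows of 300 bases, 250 before and 50 after each gene's start, were taken from RefSeq on GRCh38.p14 and searched on both strands, and all 36 genes had at least one. The ER stress response element, searched as CCAAT, 9 bases of any kind and CCACG, occurred in a window of 7 of 18 chaperone genes (38.9%) and of 0 of 18 amino acid genes. It occurred in 25 of 27305 genes with a window (0.092%). The C/EBP-ATF element, TGATGNAA, occurred in 5 of 18 amino acid genes (27.8%), in 1 of 18 chaperone genes (HERPUD1), and in 1217 of the 27305 genes (4.46%). A match is a description of letters and not a measured binding site. Both the lists and the elements were taken from what is known of these pathways, so the contrast between lists is no independent result. The 250 bases before the start are printed for HSPA5, which encodes the chaperone BiP and was called in no comparison, and for CHAC1, which rose in the set comparison that follows. Capitals mark the fixed letters of the element, which in CHAC1 lies on the opposite strand.
HSPA5, chr9:125241344-125241593, minus strand: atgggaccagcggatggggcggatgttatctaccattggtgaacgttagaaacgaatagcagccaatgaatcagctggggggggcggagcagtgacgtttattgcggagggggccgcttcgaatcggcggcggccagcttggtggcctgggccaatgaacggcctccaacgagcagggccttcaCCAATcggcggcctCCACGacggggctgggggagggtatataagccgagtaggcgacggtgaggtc
CHAC1, chr15:40953221-40953470, plus strand: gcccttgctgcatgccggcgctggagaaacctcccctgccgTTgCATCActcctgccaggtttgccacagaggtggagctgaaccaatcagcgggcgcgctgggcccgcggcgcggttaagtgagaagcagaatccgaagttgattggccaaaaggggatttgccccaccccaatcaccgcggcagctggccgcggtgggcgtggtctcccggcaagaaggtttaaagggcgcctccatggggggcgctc
Other matches are shown with up to 10 bases on either side, for members that differed between the arrays and for calreticulin (CALR), which did not pass. Capitals again mark the fixed letters.
PDIA6, chr2:10812843-10812881, gene on the minus strand: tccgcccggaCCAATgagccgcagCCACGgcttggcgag
CANX, chr5:179698768-179698806, gene on the plus strand: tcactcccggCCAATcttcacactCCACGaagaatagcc
XBP1, chr22:28800593-28800631, gene on the minus strand: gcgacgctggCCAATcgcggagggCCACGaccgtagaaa
CALR, chr19:12938374-12938412, gene on the plus strand, written as the opposite strand: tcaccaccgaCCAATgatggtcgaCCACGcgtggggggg
ASNS, chr7:97872459-97872486, gene on the minus strand: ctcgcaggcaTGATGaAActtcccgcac
PPP1R15B, chr1:204412027-204412054, gene on the minus strand: ccgccccggcTGATGcAAcctcacgctg
CEBPG, chr19:33374061-33374088, gene on the plus strand: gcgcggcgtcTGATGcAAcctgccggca
HERPUD1, chr16:56931956-56931983, gene on the plus strand, written as the opposite strand: gggcacgggcTGATGcAAcccgccgcgt

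The arrays fell into sets of 3 and 8 by their poly-A spike-in controls, bacterial RNAs added at labelling and read by 24 probe sets. Their mean was 1.62 for control (first array), 1.40 for E2-BSA (first array) and 1.58 for estradiol, and between -0.56 and 0.10 in the other 8 arrays. The sets were made from these controls and not from any member. The difference of the ACTB 3′ and 5′ probe sets, a sign of RNA quality, was -0.31, -0.28 and -0.15 in the 3 high spike-in arrays and ran from -0.17 to 0.35 in the others, with BSA highest. The hybridisation controls stood at 0.77 in the ethanol array and from -0.28 to 0.21 in the others. The part of these technical values in any result was not tested. Each treatment was therefore tested in a limma fit with a term for the set, with p-values adjusted over all genes by Benjamini-Hochberg, and a gene was called at an adjusted p under 0.05. The fit left 3 residual degrees of freedom, and the spread of groups with a single array was taken from the rest.

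**Figure D1:**
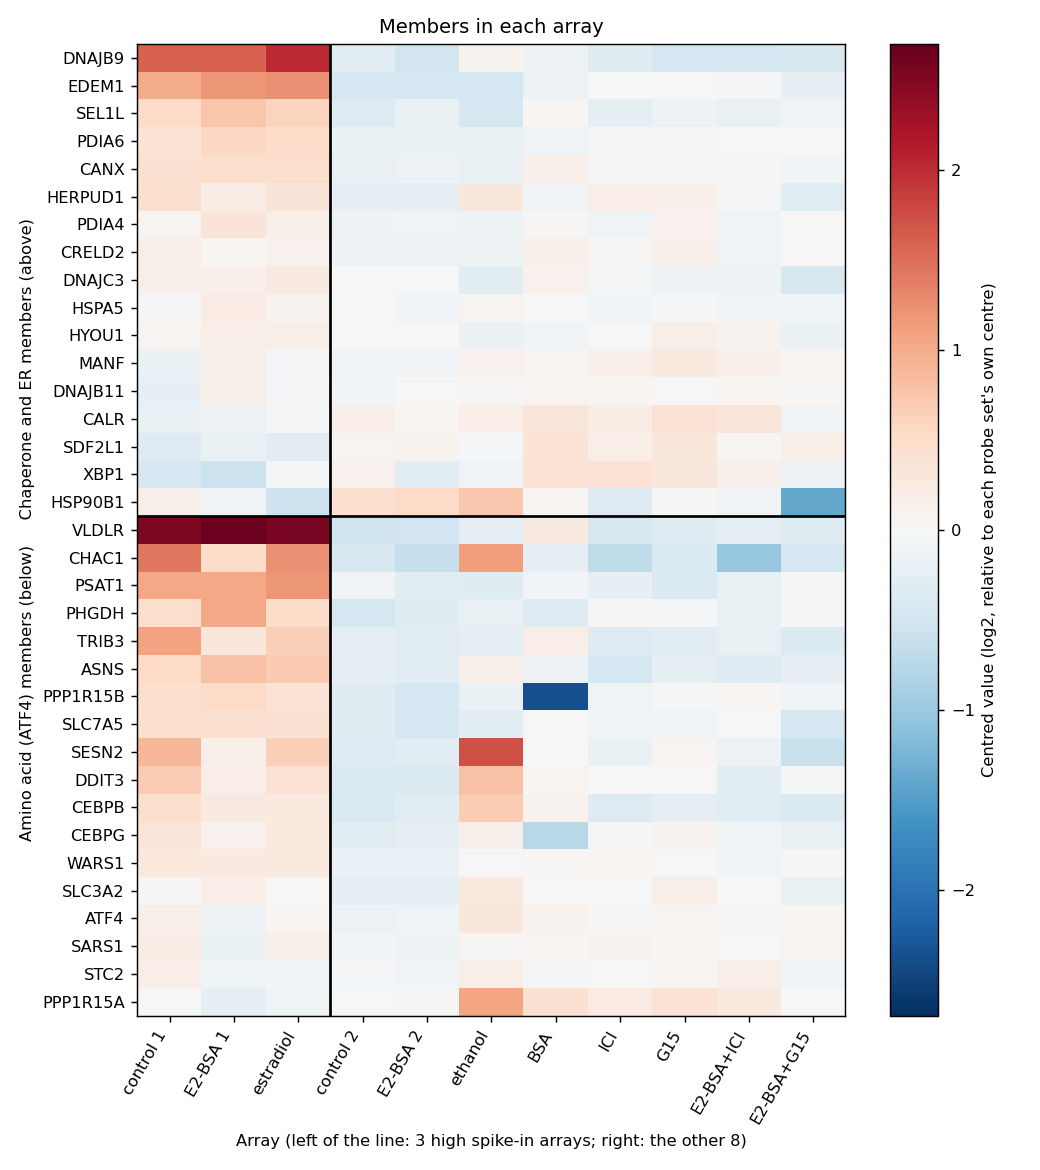
Centred log2 value of each of the 35 measured genes (rows) in each of the 11 arrays (columns), red above and blue below each probe set's own centre; the vertical line parts the 3 high spike-in arrays from the other 8 and the horizontal line parts the chaperone from the amino acid genes. VLDLR and DNAJB9 are high in all 3 arrays on the left, SESN2 is highest in the ethanol array (1.72), and PPP1R15B is lowest in the BSA array (-2.38).

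Most calls among these genes, and the 2 largest differences (VLDLR and DNAJB9), lay between the spike-in sets. In the map of values by array, most amino acid genes were higher in the first control, first E2-BSA and estradiol arrays. Limma called 20 of the 35 genes, 19 higher and 1 lower, against 24.1% of all genes called in either direction (14.1% higher, 10.0% lower). The chaperone list had 6 of 17 higher and 1 lower, with a median difference of 0.15. The amino acid list had 13 of 18 higher and 0 lower, with a median of 0.84, and the median of all genes was 0.07. The fitted difference is the mean of first minus second control array and first minus second E2-BSA array. The amino acid median was 0.80 between the control arrays and 0.55 between the E2-BSA arrays, and the chaperone median was 0.14 and 0.26. What else the sets share cannot be told apart from the spike-in controls, and in the duplicated groups the set is confounded with the replicate number.

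**Figure D2:**
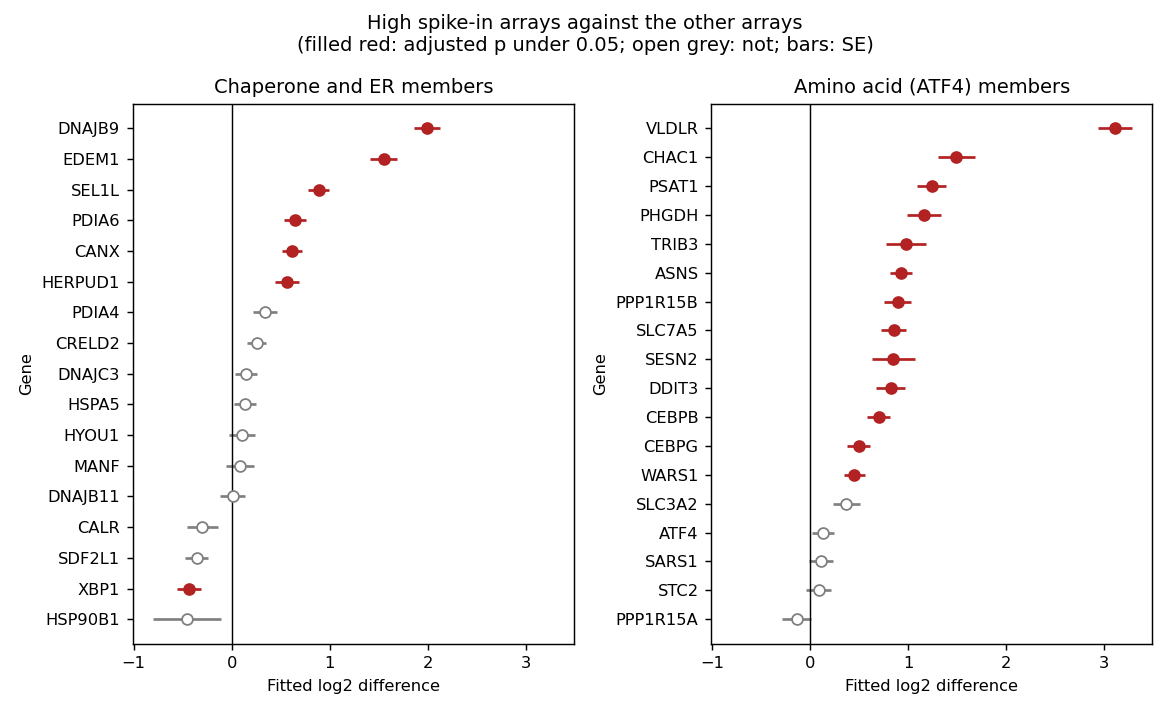
Fitted log2 difference between the high spike-in arrays and the other arrays (horizontal axis) for each chaperone gene (left panel) and amino acid gene (right panel), with bars of 1 SE from the limma fit to 11 arrays; filled red points passed an adjusted p under 0.05. The amino acid panel has 13 filled points, all to the right of 0, and the chaperone panel has 6 to the right and XBP1 to the left.

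HSPA5, HSP90B1 and HYOU1 were not called between the sets. HSPA5 had -0.04 in the first control array, 0.21 in the first E2-BSA array and 0.09 in the estradiol array, and the other 8 arrays ran from -0.08 to 0.08 with a median of -0.07. The groups overlapped, and the difference was 0.14 (adjusted p = 0.421). HYOU1, a nucleotide exchange factor for BiP, differed by 0.10, and HSP90B1, the HSP90 of the endoplasmic reticulum, by -0.46 ± 0.35 (SE). The co-chaperones divided. DNAJB9, a BiP partner that holds IRE1 in check, had 1.60, 1.59 and 2.01 in the first control, first E2-BSA and estradiol arrays, and the others ran from -0.50 to 0.09 with a median of -0.38. All 3 lay above the other 8, and the gene rose by 1.99 ± 0.13 (SE, 3.98-fold, adjusted p = 0.000335). DNAJC3, DNAJB11 and SDF2L1, other partners of BiP, were not called, at 0.15, 0.01 and -0.36, although the 3 arrays of SDF2L1 all lay below the other 8, as did 16.3% of all genes, and those of DNAJC3 all above. DNAJC3 was called higher with only probe sets whose names lack an s, x or a suffix.

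Of the disulfide isomerases and lectin chaperones, PDIA6 and CANX rose. PDIA6, which forms and reshuffles disulfide bonds, had 0.37, 0.57 and 0.49 in the first control, first E2-BSA and estradiol arrays. Its other 8 values were all at or below 0, with a median of -0.07, and it rose by 0.65 ± 0.11 (adjusted p = 0.00462). CANX, the membrane-bound lectin calnexin, had 0.41, 0.48 and 0.47 against a range of -0.21 to 0.13, and rose by 0.62 ± 0.10 (adjusted p = 0.00478). The related soluble lectin CALR differed by -0.30 and PDIA4 by 0.34 (-0.07 with probe sets lacking an s, x or a suffix), and neither was called. CRELD2 (0.26) and MANF (0.09), secreted or resident proteins induced by stress of this compartment, were not called.

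Each of the 3 measured degradation members rose, where 14.1% of all genes did. EDEM1, a lectin that hands misfolded glycoproteins to degradation, had 1.01, 1.19 and 1.23 in the first control, first E2-BSA and estradiol arrays and -0.48 to 0.02 in the others. The groups did not overlap, and it rose by 1.55 ± 0.13 (2.93-fold, adjusted p = 0.000449). SEL1L, the scaffold of the HRD1 ubiquitin ligase, had 0.52, 0.74 and 0.60, with the other arrays from -0.45 to 0.05, and rose by 0.89 ± 0.11 (adjusted p = 0.00119). HERPUD1, a membrane protein of the same complex, had 0.43, 0.21 and 0.36. Its range in the other arrays, -0.28 to 0.31, overlapped because the ethanol array was at 0.31, and it rose by 0.57 ± 0.12 (adjusted p = 0.0134). One of its probe sets gave 1.14 and the other a value within 0.01 of 0, and the call was lost without the second control array (adjusted p = 0.151), the first E2-BSA array (0.0513) or the second E2-BSA array (0.0553). OS9, a degradation lectin outside the member list, fell by 0.64.

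XBP1, the transcription factor whose mRNA IRE1 splices, was the 1 gene called lower. Its mean had -0.46, -0.57 and -0.06 in the first control, first E2-BSA and estradiol arrays, against -0.29 to 0.39 in the others, and fell by 0.43 ± 0.12 (adjusted p = 0.0327). Its 2 probe sets went opposite ways, 0.90 for one and -1.77 for the other, so the mean has no single direction behind it. The call was lost without the first control, second control or second E2-BSA array. Of the 7 chaperone genes with the ER stress response element printed or counted earlier, PDIA6 and CANX rose, the XBP1 mean fell, and HSPA5, HSP90B1, CALR and CRELD2 were not called.

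Amino acid synthesis genes were among the largest differences of the ATF4 list. PSAT1, which makes phosphoserine on the way to serine, had 1.05, 1.05 and 1.20 in the first control, first E2-BSA and estradiol arrays. The other 8 ran from -0.40 to -0.03, and it rose by 1.24 ± 0.15 (2.36-fold, adjusted p = 0.00122). PHGDH, the first enzyme of that route, had 0.48, 1.04 and 0.49 against -0.47 to 0.04, and rose by 1.16 ± 0.18 (adjusted p = 0.00297). The E2-BSA array was the highest of the 3. ASNS, asparagine synthetase, had 0.54, 0.78 and 0.70 against -0.48 to 0.15, and rose by 0.92 ± 0.11 (adjusted p = 0.00122). In each of these genes the 3 arrays lay above the other 8.

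Of the transport and tRNA charging genes, SLC7A5 and WARS1 rose. SLC7A5, the light chain of the large neutral amino acid transporter, had 0.46, 0.44 and 0.42 in the first control, first E2-BSA and estradiol arrays and -0.47 to 0.02 in the others, and rose by 0.85 ± 0.13 (adjusted p = 0.00278). Its partner chain SLC3A2 differed by 0.37 and was not called. WARS1, which charges tryptophan tRNA, had 0.30, 0.26 and 0.26 against -0.18 to 0.05, and rose by 0.45 ± 0.11 (adjusted p = 0.0179). SARS1, the seryl-tRNA synthetase, was at 0.11 and not called.

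Of the transcription factors, ATF4 itself was not called, at 0.13 (adjusted p = 0.455), with 0.14, -0.14 and 0.05 in the first control, first E2-BSA and estradiol arrays and -0.15 to 0.30 in the others. DDIT3, the factor CHOP, had 0.70, 0.17 and 0.39, and rose by 0.82 ± 0.15 (adjusted p = 0.00601). CEBPB had 0.45, 0.23 and 0.26 and rose by 0.70 ± 0.12 (adjusted p = 0.0045). CEBPG, a dimer partner of ATF4, had 0.32, 0.12 and 0.29 and rose by 0.49 ± 0.12 (adjusted p = 0.0208). The other 8 arrays ran from -0.40 to 0.78 for DDIT3, from -0.41 to 0.69 for CEBPB and from -0.75 to 0.14 for CEBPG. In DDIT3, CEBPB and CEBPG the ethanol array was the high one, so the groups overlapped, in CEBPG narrowly (0.14 against 0.12 in the first E2-BSA array).

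VLDLR, a lipoprotein receptor, had the largest difference of the 35 genes. It stood at 2.53, 2.65 and 2.57 in the first control, first E2-BSA and estradiol arrays, and ran from -0.53 to 0.23 in the others with a median of -0.34. The 3 arrays agreed within 0.2 and lay far above the rest, and the gene rose by 3.11 ± 0.17 (8.65-fold, adjusted p = 0.000335). CHAC1, an enzyme that degrades glutathione, was less even, with 1.41, 0.50 and 1.23. Its other arrays ran from -1.02 to 1.13, the ethanol array overlapped, and it rose by 1.49 ± 0.19 (2.81-fold, adjusted p = 0.0015). SESN2, a leucine-binding inhibitor of mTORC1, had 0.90, 0.15 and 0.63 against -0.61 to 1.72, and rose by 0.85 ± 0.22 (adjusted p = 0.0269). STC2, a secreted glycoprotein, was at 0.09 and not called.

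The feedback genes did not move as 1 group. TRIB3, a pseudokinase that restrains ATF4 and CHOP, had 1.08, 0.32 and 0.65 in the first control, first E2-BSA and estradiol arrays against -0.36 to 0.19, and rose by 0.98 ± 0.20 (adjusted p = 0.0113). PPP1R15B, the constitutive subunit of the eIF2α phosphatase, had 0.46, 0.51 and 0.40 against -2.38 to 0.06, and rose by 0.89 ± 0.14 (adjusted p = 0.00312). The stress-induced subunit PPP1R15A (GADD34) was at -0.14 and not called. Over both lists, the 3 high spike-in arrays lay above the other 8 in 6 of 17 chaperone and 8 of 18 amino acid genes, against 13.5% of all genes.

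The call rested unevenly on the duplicates. Without the second E2-BSA array limma called 10 members and 1321 genes, and without the second control array 11 members and 1729 genes. DNAJB9, EDEM1, SEL1L, VLDLR, CHAC1, PSAT1, PHGDH and ASNS were called with any 1 of the 4 duplicate arrays left out. CEBPG and WARS1 lost the call whichever of the 4 was left out. SESN2 kept it only without the first E2-BSA array. The chaperone median moved from 0.15 to 0.07 without the first E2-BSA array and to 0.28 without the first control array. With only probe sets lacking an s, x or a suffix, 12 of 25 members were called, against 3443 of 16788 genes. ASNS (0.06), CANX (0.03) and WARS1 (0.13) lost their calls. VLDLR, PSAT1, SEL1L, SESN2, SLC7A5 and HERPUD1 have only probe sets with such a suffix, so their calls could not be checked this way. The ASNS probe set that was left spanned 0.36 over the 11 arrays, and the one dropped spanned 2.17. Whether the lost calls reflect cross-reaction was not tested.

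**Figure D3:**
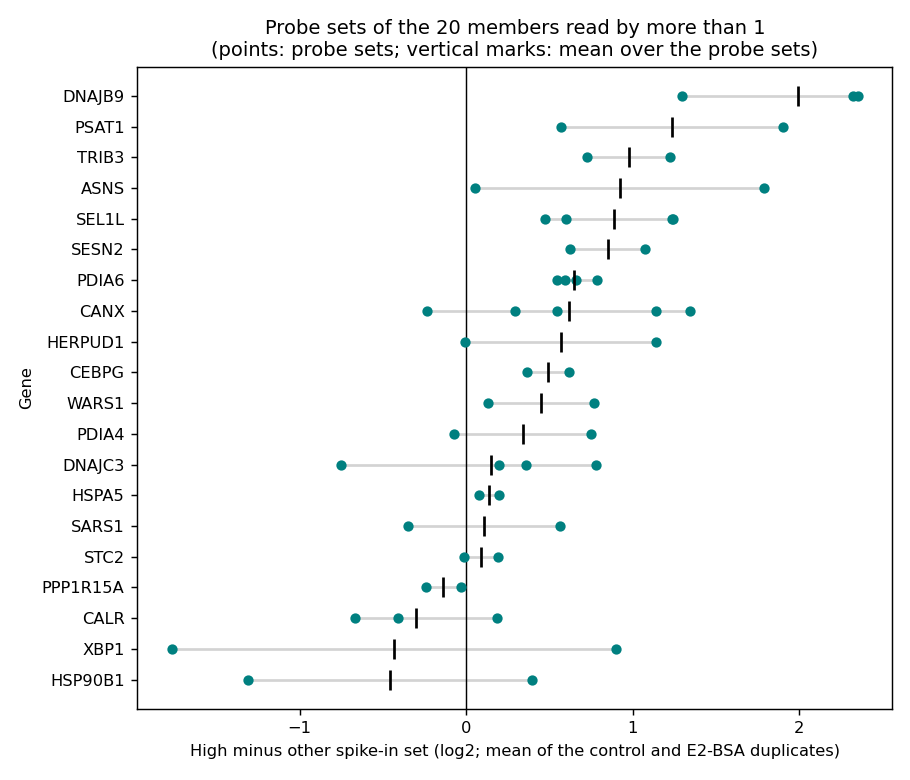
Difference between the spike-in sets (log2, mean of the control and E2-BSA duplicates) for each probe set (points) of the 20 genes read by more than 1, with the mean over a gene's probe sets as a vertical mark. All 3 DNAJB9 points lie between 1.30 and 2.36, and XBP1 spans -1.77 to 0.90.

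Probe sets of a gene did not always agree. Of the 20 members with more than 1, 9 had probe sets of opposite sign in this difference, and in 8 they lay more than 1 apart, as the plot of single probe sets shows. The DNAJB9 probe sets gave 1.30 to 2.36 and those of PDIA6 0.55 to 0.78. PSAT1 gave 0.57 and 1.91. The ASNS mean joined 1.79 from one probe set and 0.06 from another. CANX ran from -0.24 to 1.35 over 5 probe sets. HSP90B1 had 0.40 and -1.31, both from probe sets flagged by their suffix for possible cross-reaction.

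The other genes of these pathways, 72 of 76 listed being measured, were counted in the same fit, in which 14.1% of all genes were called higher and 10.0% lower. Among the sensors and kinases 2 of 7 rose, ERN1 (IRE1) by 1.04 and EIF2AK3 (PERK) by 0.73. Among other endoplasmic reticulum genes 14 of 33 rose and 3 fell, with LMAN1, a cargo receptor for glycoproteins, at 1.28 and SELENOS at 1.10, and FKBP11 at -1.10, SSR3 at -0.70 and OS9 at -0.64. Among other amino acid and ATF4 genes 11 of 32 rose and 0 fell. NUPR1, a stress-induced chromatin protein, rose by 2.96, DDIT4, an inhibitor of mTORC1, by 1.88, GDF15 by 1.51 and the glutamine transporter SLC38A2 by 1.07. GDF15 was at -0.07 with probe sets lacking a suffix only.

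The largest differences of the ethanol array from the second control array, among these genes, were in the ATF4 list. Of the 18 amino acid genes 17 lay above 0, with a median of 0.34. Of these, 6 were over 0.5 and 5 over 1, against 2.19% and 0.258% of all genes. Of the 17 chaperone genes 1 was over 0.5, HERPUD1 at 0.54, and their median was below 0.01 in size. The median of all genes was 0.05. No member passed the limma test of ethanol against control (0 of 35, against 0.086% of all genes, 17 genes). At an unadjusted p under 0.05 there were 9 of 18 amino acid genes, 2 of 17 chaperone genes and 1256 genes in all. Ethanol had 1 array, so this comparison has no replicate check.

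**Figure D4:**
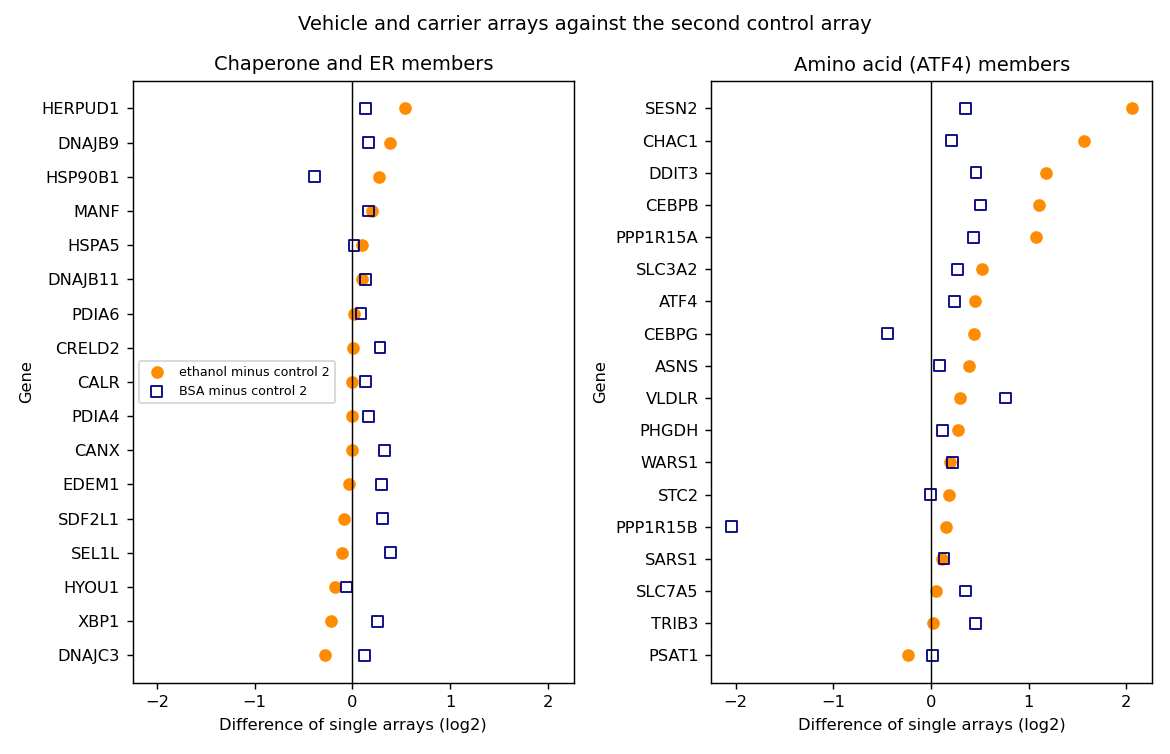
Difference of the ethanol array (filled circles) and the BSA array (open squares) from the second control array, in log2, for each chaperone gene (left) and amino acid gene (right); each point is 1 array minus 1 array. The ethanol circles of SESN2, CHAC1, DDIT3, CEBPB and PPP1R15A lie above 1, and the BSA square of PPP1R15B lies at -2.05.

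SESN2 was highest, at 1.72 in the ethanol array against -0.61 to 0.90 in the other 10 arrays, and its fitted difference was 1.88 ± 0.28 (SE, adjusted p = 0.102). Its 2 probe sets gave 1.83 and 2.29 against the second control array. CHAC1 stood at 1.13 with ethanol, above the other 7 arrays of its set and below the first control and estradiol arrays. Its fitted difference was 1.48 ± 0.24 (adjusted p = 0.158). DDIT3 stood at 0.78 with ethanol and at -0.40 in the second control array, and its fitted difference was 1.07 ± 0.19 (adjusted p = 0.201). CEBPB stood at 0.69 against -0.41 in the second control array, and its fitted difference was 1.03 ± 0.15 (adjusted p = 0.0887). PPP1R15A, the next in size and named after its values were seen, stood at 1.06 against at most 0.42 elsewhere, and both its probe sets differed by over 1 from the second control array. ATF4 stood at 0.30, the highest of the 11 arrays, with a fitted difference of 0.39.

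Without the first control or the first E2-BSA array, the ethanol term rests on the 8 low spike-in arrays. CHAC1 passed in alternatives that share this 1 estimate, so they are not separate checks. In the 8 low spike-in arrays alone it was called at 1.57 (adjusted p = 0.043), and likewise without the first control array (0.0342) or the first E2-BSA array (0.0345). Its adjusted p ran from 0.0342 to 1.0 over the alternatives. Without the second control array, or without the second E2-BSA array, limma called 0 genes for ethanol. The ethanol array lay above each of the other 10 in 6 of 18 amino acid genes (ATF4, DDIT3, SESN2, PPP1R15A, SLC3A2 and CEBPB) and in 1 of 17 chaperone genes (HSP90B1), against 4.27% of all genes. It lay above the other 7 of its set in 9 of 18 and 4 of 17, against 7.65%.

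The synthesis and charging genes that stood apart between the spike-in sets were not those with large ethanol values. Against the second control array ethanol gave -0.23 for PSAT1, 0.27 for PHGDH, 0.39 for ASNS, 0.05 for SLC7A5, 0.20 for WARS1 and 0.30 for VLDLR. TRIB3 was at 0.02 and PPP1R15B at 0.16. In the chaperone list the largest fitted differences were 0.45 for DNAJB9, 0.44 for HERPUD1, -0.33 for DNAJC3 and 0.22 for MANF, none of them called. Both comparisons use the second control array, so their values are not independent.

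Of the other pathway genes, 2 passed for ethanol. DDIT4 stood at 1.37 with ethanol and -1.21 in the second control array, and rose by 2.34 ± 0.24 (adjusted p = 0.0243). ATF3, a factor induced by ATF4, stood at 1.04 against -0.35 and rose by 1.38 ± 0.17 (adjusted p = 0.0442). Its 3 probe sets differed by 0.07, 0.88 and 3.21 from the second control array, and with probe sets lacking a suffix only it was at -0.06. The sensor ERN1 was at 0.83 and not called. Without the second control array neither passed, with DDIT4 at 1.93 and ATF3 at 1.37, nor without the second E2-BSA array, at 2.58 and 1.39, nor without the set term, at 1.40 and 1.01 (adjusted p = 0.977 for both). The DDIT4 call was also lost without the first control array (adjusted p = 0.0576) and in the 8 low spike-in arrays alone (0.0545).

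BSA, the carrier protein of E2-BSA, gave 1 called member. PPP1R15B stood at -2.38 in the BSA array and from -0.48 to 0.51 in the other 10, and fell by 1.97 ± 0.17 (3.92-fold, adjusted p = 0.00492). It was 1 of 35 members, against 0.354% of all genes called (0.228% lower). It is read by 1 probe set, and the call was lost without the second control array (-1.84, adjusted p = 0.158) or the second E2-BSA array (-2.05, adjusted p = 0.0668), and with no set term (-2.41, adjusted p = 0.584). Its adjusted p ran from 0.00225 to 0.584 over the alternatives. The median of all genes was itself shifted by 0.17 with BSA, and the list medians were 0.18 for the chaperone and 0.18 for the amino acid genes.

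The other large BSA values among the members were not called. CEBPG stood at -0.75 in the BSA array against -0.30 to 0.32 elsewhere, and its fitted difference was -0.54 ± 0.15. One of its probe sets differed by -1.19 from the second control array and the other by 0.29. The fitted differences were 0.80 for VLDLR and 0.43 for CEBPB. Among chaperone genes they were -0.59 for HSP90B1, 0.36 for SEL1L, 0.33 for CANX and 0.31 for XBP1. PPP1R15A, which shares the phosphatase role of PPP1R15B, differed by 0.44 from the second control array. Of the other pathway genes SELENOS, a selenoprotein of the degradation complex, fell by 1.47 ± 0.13 (adjusted p = 0.00492), and MTHFD2, a mitochondrial folate enzyme, fell by 1.12 ± 0.16 (adjusted p = 0.0363). SELENOS has 1 probe set, and those of MTHFD2 gave -2.25 and 0.03. The SELENOS call was lost without the second control array (adjusted p = 0.174), the second E2-BSA array (0.07) or the set term (0.584). The MTHFD2 call was lost without any 1 of the 4 duplicate arrays (adjusted p from 0.0687 to 0.613), in the 8 low spike-in arrays (0.0557) and without the set term (0.584). The BSA array also had the highest ACTB 3′ to 5′ difference, 0.35, and its part in these values was not tested.

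E2-BSA was set against its match in 4 pairs of arrays, and no member passed. Limma called 0 of 35 members and 0 genes (0.0% of all genes), with 3 members and 926 genes at an unadjusted p under 0.05. The list medians were -0.03 for the chaperone and -0.08 for the amino acid genes, with -0.02 for all genes. XBP1 was at -0.31 ± 0.08, CHAC1 at -0.38 ± 0.14 and HERPUD1 at -0.23 ± 0.09, each with an adjusted p of 0.903. These and CRELD2 were lower in 4 of 4 pairs, as were 8.26% of all genes. In the first pair the 2 XBP1 probe sets went opposite ways with E2-BSA, from 0.51 to -0.06 and from -1.43 to -1.09. In the other pairs both were lower. The HERPUD1 probe sets went opposite ways in the second pair, from -0.08 to 0.07 and from -0.38 to -0.60. PDIA6, SEL1L and VLDLR were higher in 4 of 4 pairs, as were 5.14% of all genes.

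**Figure D5:**
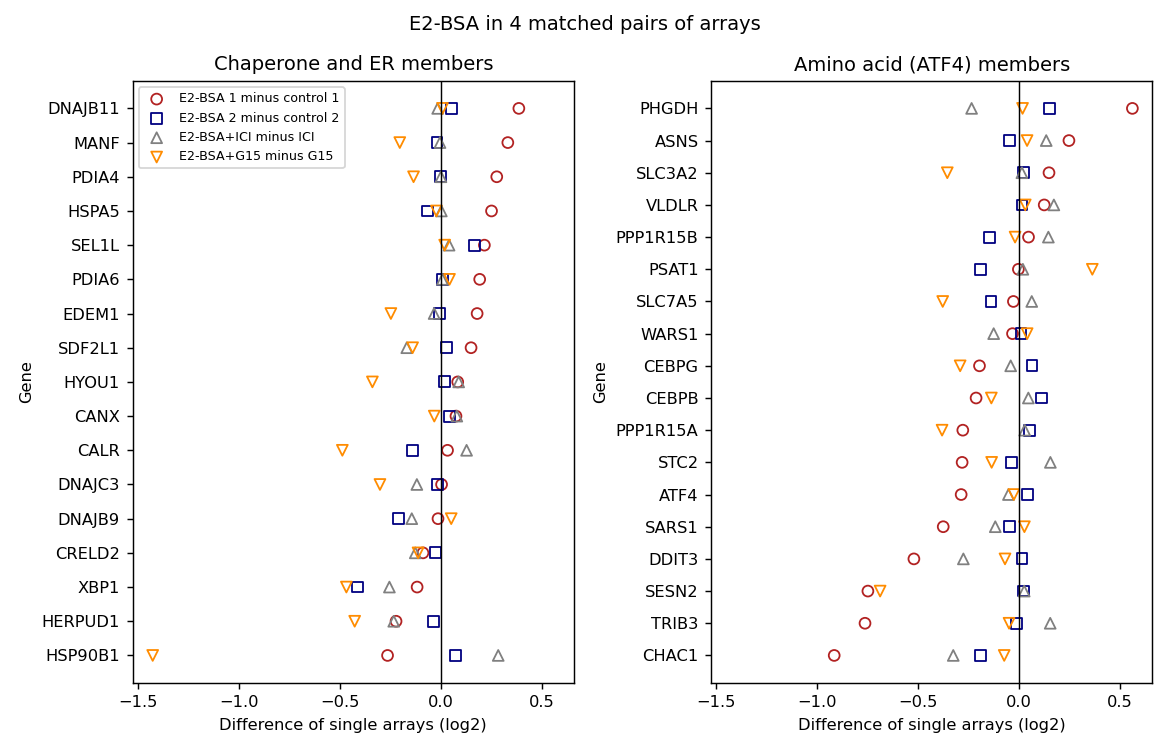
Log2 difference between an array with E2-BSA and its match without, in 4 pairs (symbols), for each chaperone gene (left) and amino acid gene (right); each point is 1 array minus 1 array. In the first pair CHAC1 (-0.92), TRIB3 (-0.76) and SESN2 (-0.75) lie far to the left, while in the second pair every amino acid gene lies between -0.19 and 0.15.

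The single differences of each pair were as follows. In the first pair, both arrays of which were high in spike-in controls, 4 of 18 amino acid genes were lower by over 0.5, against 3.89% of all genes (3.09% were higher). These were CHAC1 (-0.92), TRIB3 (-0.76), SESN2 (-0.75) and DDIT3 (-0.52). PHGDH was higher by 0.56 in the same pair, and 12 of 17 chaperone genes were above 0, none by over 0.5. In the second pair and in the pair with ICI, 0 of 35 members differed by over 0.5. Of all genes 0.415% were higher and 0.207% lower in the second pair, and 0.688% either way with ICI. In the pair with G15, HSP90B1 was at -1.42 and SESN2 at -0.69, the 2 members lower by over 0.5 (HSP90B1 probe sets -1.97 and -0.88), against 6.06% of all genes (1.61% were higher). Interaction terms, added to the fit after the data were seen and leaving at most 2 residual degrees of freedom, called 0 members for the set, ICI or G15. Over all 19775 genes they called 0 for the set, 0 for ICI and 2 for G15, with 1865, 584 and 2043 at an unadjusted p under 0.05. CHAC1 had -0.72 (adjusted p = 0.338) and TRIB3 -0.79 (adjusted p = 0.314) for the set, and HSP90B1 -1.33 ± 0.22 (adjusted p = 0.102) for G15. A difference between the pairs was therefore not called for any member.

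Within the 3 high spike-in arrays the amino acid genes did not all follow 1 order. The values of VLDLR, PSAT1, SLC7A5, WARS1, PPP1R15B, SLC3A2 and CEBPG each lay within 0.2 across the first control, first E2-BSA and estradiol arrays. CHAC1, TRIB3, SESN2 and DDIT3 were highest in the first control array and lowest in the first E2-BSA array, with estradiol between. ATF4, PPP1R15A, CEBPB, CEBPG, SARS1 and STC2 had the same order. PHGDH and ASNS were highest in the first E2-BSA array, as were VLDLR, PPP1R15B and SLC3A2 by less. Estradiol minus the first control array gave -0.19 for CHAC1, -0.43 for TRIB3, -0.26 for SESN2 and -0.31 for DDIT3. These groupings were made after the values were seen, over 3 arrays and without a test.

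Free estradiol, ICI and G15 gave no called member. For estradiol limma called 0 of 35 members and 0 genes, with 0 members and 1395 genes at an unadjusted p under 0.05. DNAJB9 was at 0.37 and HSP90B1 at -0.77. The estradiol array and the array of its vehicle lay in different spike-in sets. The fit set estradiol against untreated control and not against ethanol, so a part of the vehicle was not separated. SESN2, CHAC1, DDIT3, CEBPB and PPP1R15A were over 1 for ethanol minus the second control array. Estradiol minus the first control array gave -0.26, -0.19, -0.31, -0.19 and -0.12 for them in turn. For ICI limma called 0 members and 0 genes (5 members and 3218 genes unadjusted). EDEM1 was at 0.42, PPP1R15B at 0.39, SLC7A5 at 0.35, XBP1 at 0.35 and HERPUD1 at 0.31. For G15 it called 0 members and 0 genes (5 members and 2039 genes unadjusted), with HSP90B1 at -1.16, DDIT3 at 0.36, EDEM1 at 0.35, PPP1R15B at 0.34 and DNAJC3 at -0.28. The median of all genes was shifted by 0.14 with ICI and 0.10 with G15, and the values here are given without subtracting it. The list medians were 0.09 and 0.16 with ICI, and 0.12 and 0.18 with G15, for chaperone and amino acid genes in turn.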

How the data were processed

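Expression was read on 11 one-colour Affymetrix arrays of MDA-MB-231 cells. The deposited values are log2 values that the authors centred per probe set, to judge from the values; summarisation, normalisation and log base are not given in the sources used here, and base 2 was taken. Probe sets were joined to genes through the platform annotation: of 54675, 41091 had 1 symbol, 1801 several, 11721 none and 62 were controls. Probe sets of a gene were averaged, giving 19775 genes, with no filter on low values.

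Limma 3.58.1 in R 4.3.3 (lmFit, eBayes with trend) fitted the spike-in set, ethanol, BSA, E2-BSA, estradiol, ICI and G15 additively to 11 arrays. It was also run on simulated data with independent noise, of the same spread in every array. Such data cannot test the spread taken for groups with a single array, nor what else the sets share. In the duplicated groups, control and E2-BSA, the set coincides with the replicate number. The deviations of the first control and first E2-BSA arrays from their group means correlated over genes (r = 0.814). For these groups the set term is therefore also the replicate block. Of the single arrays, estradiol lay in the high set and the others in the low set. The pairing comes from the data and not from the labels.

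The members and lists were chosen with earlier results of these data known. Every array's value is shown in the map for all measured members. For members called between the sets, the text gives the values of the high spike-in arrays and the range of the others. The 4 largest differences of each list for the set, ethanol and BSA are named, some by their fitted difference alone. Some of the other pathway genes are named, from those called in a comparison or among the 2 largest each way. Other named members are at an unadjusted p under 0.05 or given by their difference. Alternatives were no set term, arrays centred on their median, and only probe sets without an s, x or a suffix. Others were the 8 low spike-in arrays alone, no trend, and each duplicate left out.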

Additional observations from a re-analysis of the deposited data

How the results depend on the processing

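Of the values of named genes under alternatives to the fit, 308 kept their direction and side of the threshold, 20 lost the call, 2 gained it and 14 reversed. With 1 duplicate array left out, 308 kept both, 73 lost the call, 3 gained it and none reversed. Without the replicate block (no set term) the set comparison cannot be made. Ethanol then gave 0 called genes in place of 17 and list medians of -0.16 (chaperone) and 0.0654 (amino acid). BSA gave 5 called genes in place of 70, 0 members, and medians of 0.0044 and -0.088. Without the replicate block DNAJB9 reversed for ethanol (-0.55), as did SEL1L (-0.0799), VLDLR (-0.76) and DDIT4 (-0.49) for BSA, EDEM1 (-0.35), PPP1R15B (-0.0506) and SLC7A5 (-0.0747) for ICI, and DDIT3 (-0.0476), EDEM1 (-0.43) and PPP1R15B (-0.11) for G15. Each of these genes was called between the sets. With probe sets lacking a suffix only, 12 of 25 members and 3443 of 16788 genes were called between the sets, with an amino acid median of 0.49. For ethanol 10 genes were called. PDIA4 (-0.0714), ATF3 (-0.20) and GDF15 (-0.0688) then reversed between the sets, and ATF3 (-0.0558) for ethanol. With arrays centred on their median the chaperone median between the sets was 0.0941, the BSA medians were 0.0337 and 0.0256, and 49.0% of called genes were higher between the sets, in place of 58.4%, and 20.8% for BSA, in place of 35.7%. In the 8 low spike-in arrays ethanol called 1 member and the E2-BSA chaperone median was -0.0879.

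With 1 duplicate array left out, the set comparison called 1321 to 3609 genes and 10 to 17 members, with medians of 0.0728 to 0.28 (chaperone) and 0.58 to 0.82 (amino acid). Ethanol called 0 to 15 genes and 0 to 1 members, with medians of -0.0175 to -0.0047 and 0.32 to 0.35. BSA called 4 to 58 genes and 0 to 1 members, with medians of 0.14 to 0.20 and 0.16 to 0.23. E2-BSA called 0 genes, with medians of -0.0879 to -0.0342 and -0.11 to -0.02. The cause of the other changes was not tested. Centred values hold no signal over background, so dim probe sets could not be told from bright ones.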
